A study of Mus musculus with 3 samples.

Results

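The interferon regulatory factors are a family of transcription factors, and 8 mouse genes of the family (Irf1, Irf2, Irf3, Irf4, Irf5, Irf7, Irf8 and Irf9) were followed here by gene symbol among the 31053 genes measured. All 8 were found. Their RNA was counted as unique molecular identifiers (UMIs) in single cells from C57BL/6 mouse spleen, enriched for dendritic cells (DCs) by density gradient, a sort for cells without GFP and magnetic negative selection. Cells of 6 samples, each marked by a hashtag antibody, were pooled into 1 capture with 10x 3′ v3 chemistry. The samples were 2 from leukemia-bearing mice given panobinostat for 2 days, 2 from leukemia-bearing mice given vehicle, 1 from wild-type (WT) mice given panobinostat and 1 from WT mice given vehicle. Panobinostat is a histone deacetylase inhibitor. Treatments were read from the hashtag names, with LBH taken as the compound's development code and D5W as dextrose vehicle.

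The leukemia is named only as AML in the hashtag names, and the labels describe the sort for leukemia-bearing mice without saying whether WT cells went through it. Nothing in the labels tells if each hashed sample is its own animal, how many animals it held or how far the leukemia had advanced. P-values therefore measure the spread between these hashed samples, and a comparison of leukemia with WT sets 4 hashed samples against 2.

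IRFs share a DNA-binding domain that recognises GAAA repeats in the promoters of interferon genes and of interferon-stimulated genes. IRF8 and IRF4 are found mainly in blood cells, bind composite elements together with ETS factors such as PU.1 and SpiB, and in the mouse are needed for the cDC1 lineage (IRF8) and for many cDC2 (IRF4). IRF7, IRF3 and IRF5 lie downstream of Toll-like receptors and cytosolic nucleic acid sensors, and IRF7 is held at a high level in plasmacytoid DCs (pDCs), the cells known for fast type I interferon production. IRF9 joins STAT2 in the ISGF3 complex that answers type I interferon, IRF1 is induced by interferon gamma, and IRF2 can compete with IRF1 for the same sites.

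After hashtag, quality and doublet filters 20036 cells were kept, with 174535796 gene UMIs and a median of 6213 UMIs per cell. Clusters were made without the members or their pathway genes and named from marker genes, which gave 3169 pDC-like, 3070 cDC1-like, 3965 cDC2-like and 3783 mature DC-like cells. All 9 pDC markers were raised in the pDC-like cluster, and the 9 cDC1 markers in the main cDC1-like cluster. The other cDC1-like clusters had 8 and 7 of 9 raised, and the mature DC-like clusters had 7 to 10 of 10. Support was weakest for the cDC2-like clusters, with 8, 7, 7, 5 and 3 of 11 markers raised. The one with 3 held 116 cells at a median of 1979 UMIs, and made up 10.7% of cDC2-like cells in WT panobinostat. Levels are given as CPM, the UMIs of a gene per 1000000 summed UMIs of a class in a hashed sample. These sums ran from 209940 to 14019958 UMIs. Leukemia vehicle 2 stood apart, with a median of 13135 UMIs per cell against 5302 to 7354 in the others, and with 1041 of the 1215 mast or basophil-like and 668 of the 892 erythroid-like cells. Without it the mean of Irf8 in pDC-like cells was 2824 CPM against 2835 CPM with it. Other means moved more. Irf8 went from 86.1 to 92.1 CPM in cDC2-like cells and from 411 to 356 CPM in monocyte-like cells. In cDC1-like cells Irf7 went from 63.5 to 58.0 CPM and Irf4 from 0.927 to 1.11 CPM. WT panobinostat held only 36 pDC-like cells, and the summed plasma cell markers in them were 4563 CPM against at most 206 CPM in pDC-like cells of any other sample. In summed samples, fewer cells with a transcript and less transcript per cell cannot be told apart.

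On the GRCm38 build the members lie apart in the genome. Irf1 is on chromosome 11 (53770014 to 53778374, plus strand), Irf4 on chromosome 13 (30749226 to 30766976, plus strand), Irf5 on chromosome 6 (29526625 to 29541871, plus strand) and Irf9 on chromosome 14 (55603571 to 55610030, plus strand). Irf2 (46739732 to 46847458, plus strand) and Irf8 (120736358 to 120756694, plus strand) share chromosome 8, and Irf3 (44997648 to 45002848, plus strand) and Irf7 (141262706 to 141266481, minus strand) share chromosome 7. In the GENCODE annotation Irf8 overlaps Gm20388 and Irf9 overlaps Rnf31 on the same strand. Irf3 overlaps Bcl2l12, Irf5 overlaps Tnpo3 and Irf7 overlaps Phrf1 on the opposite strand, and Irf1 and Irf2 overlap only predicted genes there. How reads in these overlaps were assigned is not given in the sources used here, so the levels of these members carry that uncertainty.

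The promoters of Irf8, Irf1 and Irf7 are shown because Irf8 and Irf1 were high together in part of the mature DC-like cells and Irf7 was the member called between leukemia and WT. RefSeq gives 2 windows for Irf8 and for Irf1, of which the first is printed, and 1 for Irf7. Each is a window of 300 bases on GRCm38.p6, from 250 bases before to 50 bases after a transcript start, written 5′ to 3′ on the gene's strand. Irf8 is chr8:120736108-120736407 (plus), Irf1 is chr11:53769764-53770063 (plus) and Irf7 is chr7:141266375-141266674 (minus). Capitals mark the STAT-type GAS motif TTCNNNGAA, which is a palindrome and so reads alike on both strands.
Irf8: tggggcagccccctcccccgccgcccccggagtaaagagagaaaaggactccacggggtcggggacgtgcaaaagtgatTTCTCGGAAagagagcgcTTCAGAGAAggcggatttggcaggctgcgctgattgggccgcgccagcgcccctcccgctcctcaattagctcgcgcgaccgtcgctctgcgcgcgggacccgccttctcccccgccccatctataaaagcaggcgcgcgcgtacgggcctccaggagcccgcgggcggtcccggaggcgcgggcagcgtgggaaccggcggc
Irf1: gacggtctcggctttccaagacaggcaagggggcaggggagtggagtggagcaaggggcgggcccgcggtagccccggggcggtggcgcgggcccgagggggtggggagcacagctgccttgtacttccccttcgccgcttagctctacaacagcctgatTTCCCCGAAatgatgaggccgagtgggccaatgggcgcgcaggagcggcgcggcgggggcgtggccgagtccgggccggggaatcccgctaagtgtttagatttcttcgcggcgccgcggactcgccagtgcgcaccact
Irf7: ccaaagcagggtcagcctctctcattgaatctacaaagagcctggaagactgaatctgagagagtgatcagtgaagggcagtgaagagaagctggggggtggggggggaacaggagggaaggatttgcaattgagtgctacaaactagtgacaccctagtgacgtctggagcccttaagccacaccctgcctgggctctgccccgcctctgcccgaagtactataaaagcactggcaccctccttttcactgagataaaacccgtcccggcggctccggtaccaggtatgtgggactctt
The GAS letters stood 2 times in the printed Irf8 window, starting at -171 and -153 from the transcript start, and 1 time in the printed Irf1 window, at -90. The second window of each gene held none, and the Irf2 window held them at -224. They were present in 8.30% of all 32851 promoter windows of this length. The Irf7 window held neither GAS nor the interferon-response letters GAAANNGAAA on either strand, which 3.44% of all windows held. It carried TATAAA at -29, as the printed Irf8 window did at -31, and 13.6% of all windows held those letters on either strand. Of the other members, only Irf2 held GAAANNGAAA (at -241), in a stretch that overlapped the ETS-IRF letters GGAANNGAAA (at -247, in 2.72% of all windows). A match of letters is a description of the sequence and not a bound site.

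Irf8, a factor of DC lineages, was held unevenly by the DC classes and was highest in pDC-like cells. It was at 2620 to 2961 CPM in pDC-like cells (median 2859, 6 samples) and at 1427 to 1704 CPM in cDC1-like cells (median 1562). In mature DC-like cells it was at 277 to 384 CPM (median 309), and in cDC2-like cells at 55.9 to 118 CPM (median 87.9). The 4 ranges did not overlap, and each step of this order was seen in 6 of 6 samples. The step from pDC-like to cDC1-like cells gave p = 0.03125 in a two-sided exact paired permutation test, the smallest p that 6 samples allow, with an adjusted p of 0.0417 over 24 such steps. In edgeR's quasi-likelihood test, scaled by TMM to the bulk of genes, Irf8 was 0.51 ± 0.11 higher on the log2 scale in pDC-like cells than in cDC1-like cells (SE, adjusted p = 0.000211). It was 4.41 ± 0.13 higher in cDC1-like than in cDC2-like cells (adjusted p = 2.86e-22).

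The monocyte-like cluster had 4 of 8 monocyte markers raised, and a cluster with the same leading genes was called cDC2-like (6 of 11 markers) under the ratio hashtag call. Outside the 4 DC classes as named here, Irf8 was at 411 ± 217 CPM in monocyte-like cells (SD, n = 6), at 239 ± 71.7 CPM in B cell-like cells (n = 5) and at 658 and 800 CPM in the macrophage-like cells of the 2 samples with enough of them. Monocyte-like cells were spread widely, from 188 to 687 CPM.

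Irf4 had a pattern of another shape, with one class almost without it. In cDC1-like cells it was at 0 to 1.28 CPM (median 1.16), and the 0 of leukemia vehicle 2 allows up to 0.711 CPM at 3 UMIs. It was at 17.8 to 21.4 CPM in cDC2-like (median 20.1), 12.1 to 21.7 CPM in mature DC-like (median 13.5) and 9.53 to 20.8 CPM in pDC-like cells (median 11.5). These 3 ranges overlapped with each other and stood clear of cDC1-like cells. Within samples pDC-like cells were below mature DC-like cells in 6 of 6 (exact paired permutation p = 0.03125, adjusted p = 0.0417). In edgeR's test Irf4 in pDC-like cells differed by -0.56 ± 0.15 from cDC2-like (adjusted p = 0.0021) and by -0.59 ± 0.16 from mature DC-like cells (adjusted p = 0.00171) on the log2 scale, called in 16 and 14 of 16 settings. The order of cDC2-like and mature DC-like cells did not differ beyond its spread, since cDC2-like cells were higher in 4 of 6 samples (exact paired permutation p = 0.125). In edgeR's test Irf4 in cDC1-like cells differed from cDC2-like cells by -3.99 ± 0.20 on the log2 scale (adjusted p = 3e-17). Outside these classes Irf4 was at 51.5 ± 14.5 CPM in monocyte-like (SD, n = 6) and 50.9 ± 19.7 CPM in B cell-like cells (n = 5).

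**Figure D1:**
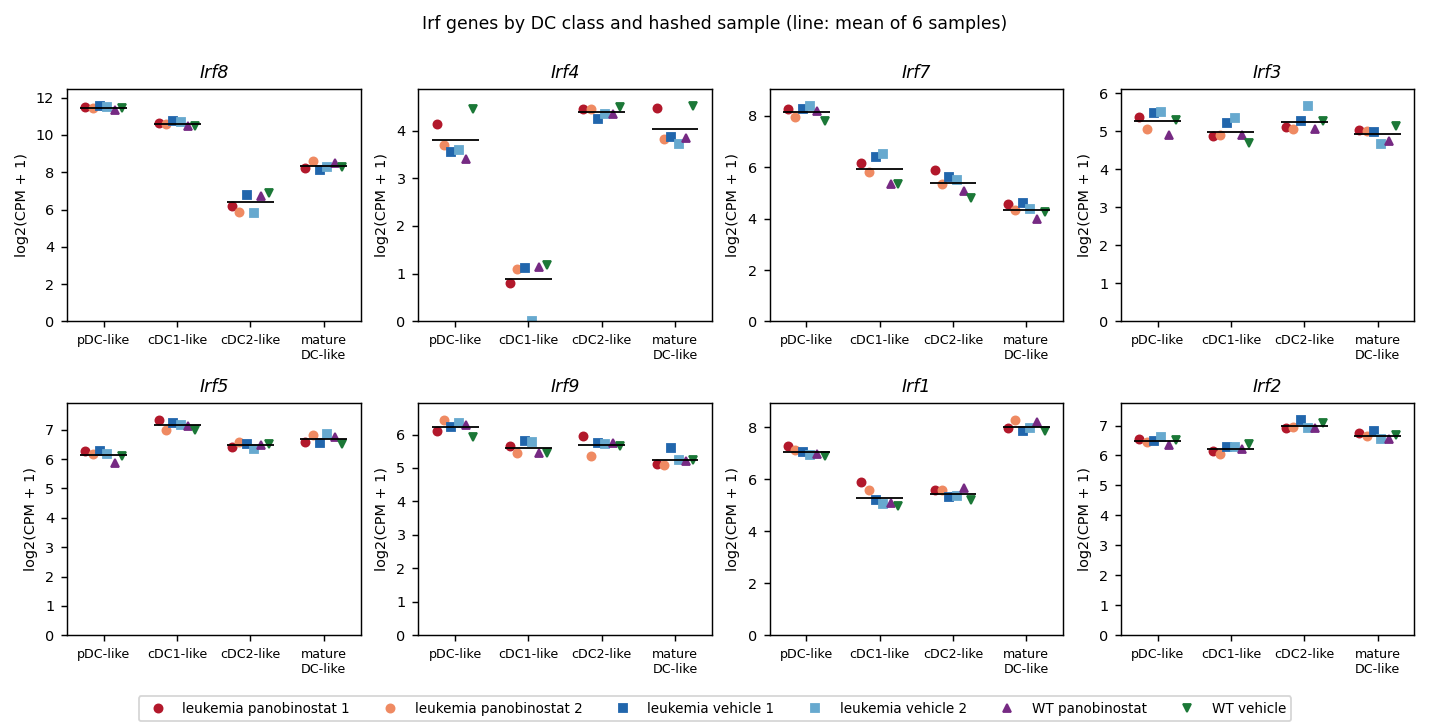
Level of each Irf gene in 4 DC classes, as log2(CPM + 1) of the summed UMIs, with 1 point per hashed sample and a line at the mean of the 6 samples. Irf8 and Irf7 were highest in pDC-like cells, Irf4 was near 0 in cDC1-like cells and Irf1 was highest in mature DC-like cells; axes differ between genes and all begin at 0.

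Cell by cell, Irf8 and Irf4 were counted after each cell had been thinned to 2000 UMIs, which takes out the difference in depth between classes. Irf8 was then found in 99.6% of 3133 pDC-like cells (unthinned 99.97%), 94.1% of 3037 cDC1-like cells, 34.5% of mature DC-like cells and 13.5% of cDC2-like cells. In erythroid-like cells, which should lack it, 7.40% of thinned cells held a UMI. Before thinning that share was 37.4%, at a median depth of 19550 UMIs, against median depths of 5188 UMIs in pDC-like and 5550 UMIs in cDC2-like cells. The cDC2-like share had a 95% Wilson interval of 12.4 to 14.6%, which covers counting error only and lay above the 5.86 to 9.31% of erythroid-like cells. Of those 892 cells 668 came from leukemia vehicle 2. By hashed sample the shares overlapped, at 9.56 to 16.3% in cDC2-like and 5.39 to 19.0% in erythroid-like cells. Irf8 levels overlapped as well, at 55.9 to 118 CPM in cDC2-like and 21.3 to 119 CPM in erythroid-like cells. Irf4 was found in 4.20% of cDC2-like, 3.72% of mature DC-like, 2.90% of pDC-like and 0.165% of cDC1-like cells, against 0.112% of erythroid-like cells. The erythroid-like share of Irf4 rests on 1 cell, with a 95% Wilson interval of 0.0198 to 0.632% that covers the cDC1-like share. In pooled UMIs Irf4 was at 1.06 CPM in cDC1-like and 0.445 CPM in erythroid-like cells. By hashed sample these levels overlapped, at 0 to 1.28 CPM and 0 to 1.44 CPM. Whether the cDC1-like share of Irf4 stands above background was not tested.

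Few cells held both factors outside the pDC-like class. Of 91 pDC-like cells with an Irf4 UMI, 89 also held Irf8. Among cDC2-like cells 139 held Irf4 alone, 492 held Irf8 alone and 21 held both, and Irf8 was found in 13.1% of the cells with Irf4 and in 13.5% of those without. In mature DC-like cells Irf8 was found in 24.6% of the cells with Irf4 and in 34.9% of those without. These shares come from sparse counts of single cells and are given without a test.

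**Figure D2:**
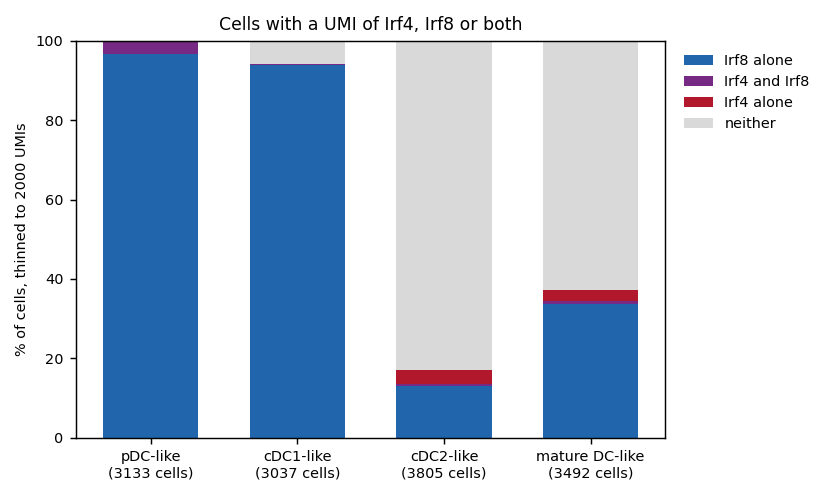
Share of cells (%) with a UMI of Irf8 alone, of both Irf4 and Irf8, of Irf4 alone or of neither, in the 4 DC classes after thinning each cell to 2000 UMIs. Nearly all pDC-like and cDC1-like cells held Irf8, 96.7% and 94.0% of them without Irf4, while 82.9% of cDC2-like cells held neither.

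Irf7, which drives type I interferon genes once phosphorylated, was highest in pDC-like cells. It was at 223 to 331 CPM in pDC-like cells (median 299.9), 39.3 to 90.7 CPM in cDC1-like cells (median 63.8), 27.2 to 58.2 CPM in cDC2-like cells (median 42.1) and 14.98 to 23.5 CPM in mature DC-like cells (median 19.5). The pDC-like range and the mature DC-like range stood apart from all others, while the cDC1-like and cDC2-like ranges overlapped. Within samples each step of this order held in 6 of 6 (exact paired permutation p = 0.03125, adjusted p = 0.0417). In edgeR's test Irf7 was 1.82 ± 0.09 higher on the log2 scale in pDC-like cells than in cDC1-like cells (adjusted p = 1.76e-17) and 0.79 ± 0.10 higher in cDC1-like than in cDC2-like cells (adjusted p = 3.25e-08). Thinned to equal depth, 38.5% of pDC-like cells held an Irf7 UMI. Of cDC1-like cells 9.88% held one, of cDC2-like cells 6.49% and of mature DC-like cells 2.95%, against 8.63% in erythroid-like cells. The 95% Wilson intervals of cDC1-like (8.87 to 10.99%) and cDC2-like cells (5.75 to 7.32%) overlapped the 6.96 to 10.7% of erythroid-like cells, and mature DC-like cells lay below it. The erythroid-like share is no plain measure of free RNA, since their pooled UMIs held Irf7 at 41.2 CPM and Irf8 at 33.9 CPM, against 288 CPM and 2895 CPM in pDC-like cells.

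Cells with more Irf7 also held more RNA of type I interferon targets on average, in each class with cells to compare. Thinned to 2000 UMIs, pDC-like cells had on average 17.1 UMIs of the target list in the 1927 cells without Irf7, 18.9 UMIs in the 827 cells with 1 Irf7 UMI and 24.7 UMIs in the 379 cells with 2 or more. The order was the same in each sample with 20 or more cells in the groups compared, for example 15.1, 17.3 and 24.7 UMIs in WT vehicle. In cDC2-like cells the averages were 3.604 UMIs without Irf7, 6.09 UMIs with 1 and 19.7 UMIs with 2 or more (25 cells), and in cDC1-like cells 0.960, 1.64 and 5.89 UMIs. Mature DC-like cells held 1.47 UMIs without Irf7 and 3.34 UMIs with 1. Medians in the same order were 16, 18 and 22 UMIs in pDC-like and 3, 5 and 18 UMIs in cDC2-like cells. They moved less in cDC1-like cells, at 1, 1 and 2 UMIs (45 cells with 2 or more), and in mature DC-like cells, at 1 and 1.5 UMIs. All cells of a class share a capture, and this is a description of sparse counts without a test.

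Irf3, which is present in many cell types and activated by phosphorylation, ran in a narrow range across the classes. It was at 28.6 to 44.1 CPM in pDC-like (median 39.4), 32.1 to 49.3 CPM in cDC2-like (median 35.4), 24.96 to 39.6 CPM in cDC1-like (median 28.6) and 24.3 to 34.2 CPM in mature DC-like cells (median 31.0). All 4 ranges overlapped, and in edgeR's test none of the 6 class pairs was called. Relative to library totals 4 of the 6 were called, and on the CPM scale cDC2-like cells were above cDC1-like cells in 6 of 6 samples (exact paired permutation p = 0.03125, adjusted p = 0.0417). The difference of pDC-like and cDC1-like cells was 0.02 on the log2 scale, with a 95% interval of -0.17 to 0.20 and an adjusted p of 0.899.

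Irf5, the MyD88-linked factor tied to inflammatory cytokines, was highest in cDC1-like cells. It was there at 127 to 159 CPM (median 141), against 89.8 to 114 CPM in mature DC-like (median 101.0), 81.1 to 95.9 CPM in cDC2-like (median 88.5) and 57.2 to 76.8 CPM in pDC-like cells (median 71.5). The cDC1-like and the pDC-like ranges overlapped with no other, and those of mature DC-like and cDC2-like cells overlapped with each other. In edgeR's test the log2 difference of Irf5 between pDC-like and cDC1-like cells was -1.30 ± 0.08 (adjusted p = 8.82e-15).

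Irf9, the DNA-binding part of ISGF3, was highest in pDC-like cells. It was at 59.9 to 85.2 CPM in pDC-like (median 75.0), 40.3 to 61.3 CPM in cDC2-like (median 52.0), 42.5 to 55.4 CPM in cDC1-like (median 46.1) and 32.9 to 47.9 CPM in mature DC-like cells (median 36.3). In edgeR's test it was 0.22 ± 0.08 higher on the log2 scale in pDC-like cells than in cDC1-like ones (adjusted p = 0.021). That call was lost without leukemia panobinostat 2 (0.16, adjusted p = 0.0931) and without WT panobinostat (0.20, adjusted p = 0.0557). It was also lost without the doublet filter (0.027, adjusted p = 0.891), without cycling clusters (0.099, adjusted p = 0.31) and in thinned cells (0.295, adjusted p = 0.0746), so it held in 11 of 16 settings of edgeR's fit.

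Irf1, summed over each class, was highest in mature DC-like cells. It was at 229 to 308 CPM there (median 249), against 117 to 153 CPM in pDC-like (median 128), 35.7 to 49.6 CPM in cDC2-like (median 43.4) and 30.1 to 58.2 CPM in cDC1-like cells (median 34.7). The cDC2-like and cDC1-like ranges overlapped, with cDC2-like cells higher in 5 of 6 samples (exact paired permutation p = 0.219), and the other steps held in 6 of 6. In edgeR's test its log2 difference from mature DC-like cells was -2.89 ± 0.10 in cDC2-like cells (adjusted p = 1.64e-21) and -1.36 ± 0.09 in pDC-like cells (adjusted p = 2.97e-14). The class was uneven in its pooled UMIs, with Irf1 at 496 CPM in the cluster led by Arc (1177 cells). Clusters led by Ccl17 and Psca were at 158 and 137 CPM. Those led by Dkk2 (1224 cells), Lta (598 cells) and Tnni1 (81 cells) were at 95.5, 85.7 and 67.3 CPM, below the 132 CPM of pDC-like cells.

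Irf2, often a repressor at IRF1 sites, ran in a narrower range. It was at 119 to 144 CPM in cDC2-like (median 121), 91.6 to 111 CPM in mature DC-like (median 100.3), 81.0 to 98.1 CPM in pDC-like (median 89.7) and 65.5 to 81.7 CPM in cDC1-like cells (median 75.1). On this scale cDC2-like cells stood above every other class, and above mature DC-like cells in 6 of 6 samples (exact paired permutation p = 0.03125, adjusted p = 0.0417). Scaled by TMM the difference from mature DC-like cells was 0.03 (edgeR adjusted p = 0.713). The order of pDC-like and cDC1-like cells depended on the scaling as well. Relative to library totals Irf2 was higher by 0.27 on the log2 scale in pDC-like cells (adjusted p = 0.000747), while the median of all genes was itself higher by 0.34 there. Relative to the bulk of genes, by TMM, the difference was -0.08 with an adjusted p of 0.363.

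Counting calls at a 5% false discovery rate in edgeR, 6 of the 8 members were called between pDC-like and cDC1-like cells, where 69.1% of the 11101 genes tested were called. Between pDC-like and cDC2-like cells 7 of 8 were called (all genes 65%), between pDC-like and mature DC-like cells 7 of 8 (all genes 73.7%) and for the pair of cDC1-like and cDC2-like cells 5 of 8 (all genes 59.3%). Between cDC1-like and mature DC-like cells 7 of 8 were called (all genes 73.7%) and between cDC2-like and mature DC-like cells 4 of 8 (all genes 67%). These shares are near those of all genes, so the number of members called says little about the family. The classes came from clustering the same cells on other genes, and the class pairs are no independent test of a class.

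Levels also split within a class, and mature DC-like cells were one such class. The cluster led by Arc, Tnfrsf4 and Il15ra (1177 cells) had Irf1 at 444 to 567 CPM, Irf8 at 492 to 625 CPM and Irf4 at 0 to 13.1 CPM over the 6 samples. The cluster led by Dkk2, Crispld2 and Ryr3 (1224 cells) had Irf1 at 80.3 to 119 CPM, Irf8 at 63.7 to 130.1 CPM and Irf4 at 29.7 to 47.6 CPM. The ranges of all 3 genes were apart, so mature DC-like cells held an Irf8-high, Irf1-high, Irf4-low group beside an Irf4-high group with less Irf8 and Irf1. Another cluster, led by Lta and Wfdc21 (598 cells), had Irf1 at 52.9 to 177 CPM and Irf8 at 170.1 to 253 CPM. In the same class 48.2% of the cells with an Irf1 UMI held Irf8, against 28.8% of the cells without. Clusters are descriptions, with no test.

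Among cDC2-like cells the cluster led by Clec4a3, Clec4b1 and Wfdc17 (330 cells) had Irf7 at 38.4 to 106 CPM (median 91.0). The main cDC2-like cluster, led by Mmp9 and Mmp12 (2814 cells), had 29.8 to 52.9 CPM (median 35.2). Clusters with no class name also carried the family. The cluster led by Il12b and Ccl24 (415 cells) had Irf8 at 1117 CPM and Irf1 at 136 CPM in its pooled UMIs, and a cluster of 68 cells with all 9 pDC markers raised had Irf8 at 2316 CPM and Irf7 at 249 CPM.

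**Figure D3:**
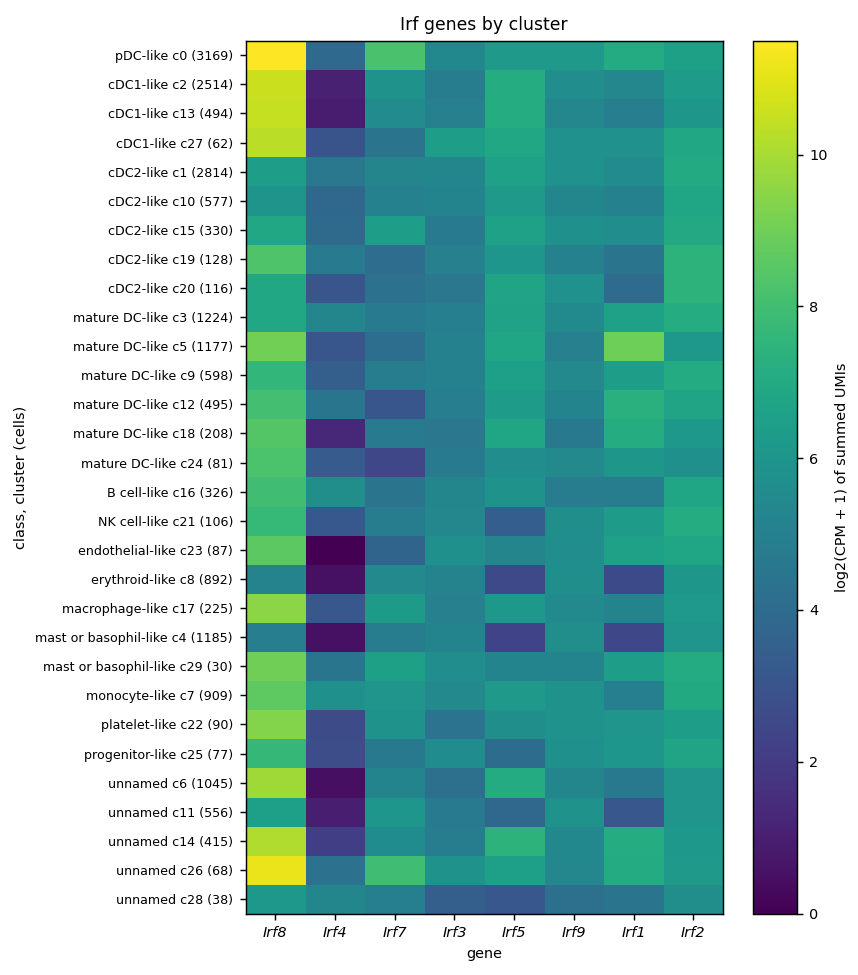
Pooled level of each Irf gene in every cluster, as log2(CPM + 1) of summed UMIs (colour), with the class name and the number of cells on the vertical axis and genes on the horizontal axis. The mature DC-like cluster c5 was high in Irf1 and Irf8, cluster c3 was the one of that class with the most Irf4, and the pDC-like cluster led in Irf8 and Irf7.

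The genes whose levels ran most like a member over the 24 class and sample sums were named by a fixed rule, the highest Pearson correlations of log2(CPM + 1) among 6965 genes. For Irf8 they were Mpeg1 (0.995), the perforin-like gene of phagocytes, then Trib1 and Gng12. For Irf7 they were Xbp1 (0.978), a factor of the secretory pathway, then Fam117a and Tmem229b, and for Irf4 they were Il2rg (0.975), the common cytokine receptor chain, then Lysmd2 and Fam107b. Irf1 ran with the class I genes H2-Q4 (0.972) and H2-Q6 and with Hivep1, and Irf5 ran with Tlr11 (0.956), AC163354.1 and Snx22. Irf2 ran with Mycbp2 (0.949), Cep63 and Ddx58, Irf9 with Esd (0.943), Ndufa7 and Lsm14a, and Irf3 less closely with Yipf4 (0.836), Nelfcd and Gpn3. The 24 points share 6 samples and 4 classes, so these values describe the class pattern and carry no p.

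Other genes of the pathway were set beside the members in the class pairs. As 69.1% of all genes were called between pDC-like and cDC1-like cells, the list counts are read as descriptions. Of 19 genes that activate IRFs, pDC-like cells had 9 higher and 5 lower than cDC1-like cells. The endosomal receptors split: Tlr7 was 7.10 ± 0.17 higher on the log2 scale (adjusted p = 3.05e-25) and Tlr3 differed by -5.58 ± 0.17 (edgeR's test, adjusted p = 1.42e-22). Ikbke, a kinase that phosphorylates IRF3 and IRF7, was 4.30 ± 0.61 higher (edgeR adjusted p = 3.09e-07). Its mean was 2.75 CPM in pDC-like and 0.0586 CPM in cDC1-like cells, so the size of this change rests on a level near 0. Of the 8 ISGF3 pathway genes 5 were higher and 2 lower, with the receptor chains Ifnar2 (2.26 ± 0.09, adjusted p = 4.69e-20) and Ifnar1 (1.84 ± 0.07, adjusted p = 2.69e-20) and Stat2 (1.79 ± 0.09, adjusted p = 7.69e-17) in front.

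Of the 14 DC factors that act around IRF4 and IRF8, pDC-like cells had 7 higher and 6 lower than cDC1-like cells. The pDC factors Spib (6.55 ± 0.14, adjusted p = 1.57e-26), Runx2 (6.39 ± 0.10, adjusted p = 3.35e-30) and Zeb2 (6.25 ± 0.17, adjusted p = 5.04e-24) led it in edgeR's test. Of 19 type I interferon targets tested, 12 were higher and 2 lower, led by Bst2 (4.93 ± 0.09, adjusted p = 6.15e-28), Ly6a (4.72 ± 0.19, adjusted p = 6.22e-20) and Oasl2 (3.79 ± 0.20, adjusted p = 1.35e-16). Of 15 interferon gamma and IRF1 targets 4 were higher and 8 lower, with the chemokine Cxcl9 lowest (-5.19 ± 0.22, adjusted p = 4.27e-19), then Cxcl10 (-3.63 ± 0.26, adjusted p = 2.2e-13) and Ciita (-2.25 ± 0.11, adjusted p = 6.75e-18). Irf2bp2, a partner of IRF2, was 2.85 ± 0.08 higher (adjusted p = 4.01e-23) and was the only one of 3 IRF2-binding proteins called.

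The interferon gamma and IRF1 targets were set beside Irf1 in mature DC-like cells. Of 15 such genes, 10 were lower and 3 higher in cDC2-like than in mature DC-like cells, with a median log2 change of -0.79 against 0.01 over all genes, of which 67% were called. The guanylate-binding proteins led: the log2 difference was -4.07 ± 0.19 for Gbp5 (adjusted p = 9.78e-18), -3.48 ± 0.16 for Gbp2 (adjusted p = 2.08e-18) and -3.23 ± 0.15 for Gbp4 (edgeR's test, adjusted p = 2.65e-18). In pDC-like against mature DC-like cells 11 of the 15 were lower and 3 higher, with a median of -1.59. In cDC1-like against mature DC-like cells, where Irf1 differed by -2.80, 7 were lower and 7 higher, with a median of -0.12. In both of these pairs 73.7% of all genes were called.

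Transcripts of the interferons themselves were nearly absent. Of 20 type I and III interferon genes measured, 1 had any UMI in the kept cells (Ifnz, 10 UMIs), and the 3169 pDC-like cells held 0. A count of 0 allows up to 0.0947% of pDC-like cells with a UMI, for counting error only.

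Panobinostat was compared with vehicle in each class by edgeR with disease state in the model, 3 hashed samples against 3. No member passed the 5% false discovery rate in any class, in edgeR's or in DESeq2's test. At an unadjusted p under 0.05 the count was 1 of 8 members for pDC-like, 3 of 7 for cDC1-like, 1 of 8 for cDC2-like and 2 of 8 for mature DC-like cells. In the same order of classes, 647 of 9484, 1696 of 9895, 771 of 9852 and 1016 of 9252 of all genes had one. At the 5% false discovery rate the share of all genes called was 0.358% for pDC-like, 2.7% for cDC1-like, 0.152% for cDC2-like and 0.919% for mature DC-like cells. Irf4 was too low to be tested in cDC1-like cells.

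Irf1 had the same sign in every class without passing the test. Irf1 in mature DC-like cells was at 250.03, 308 and 292 CPM with panobinostat (leukemia 1, leukemia 2 and WT), against 229, 247 and 229.8 CPM with vehicle (leukemia 1, leukemia 2 and WT). The groups did not overlap, and the difference was 0.36 ± 0.10 on the log2 scale (SE, edgeR adjusted p = 0.123). In cDC2-like cells it was at 46.5, 47.3 and 49.6 CPM with panobinostat, against 39.0, 40.2 and 35.7 CPM with vehicle, again without overlap (0.41 ± 0.11, edgeR adjusted p = 0.203). In cDC1-like cells it was at 58.2, 47.1 and 33.4 CPM with panobinostat, against 36.0, 31.7 and 30.1 CPM with vehicle. Here the WT panobinostat sample fell among the vehicle values, and the difference was 0.44 ± 0.12 (edgeR adjusted p = 0.0562). In pDC-like cells it was at 153, 139 and 124 CPM with panobinostat, against 133, 121 and 117 CPM with vehicle (0.22 ± 0.09, edgeR adjusted p = 0.652).

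In the leukemia samples alone the cDC1-like difference of Irf1 was 0.67 on the log2 scale and was called (edgeR adjusted p = 0.0018), and it was also called without WT panobinostat (0.66, adjusted p = 0.0013) or without WT vehicle (0.66, adjusted p = 0.00144). The interaction of disease and treatment was 0.53 ± 0.18 with an adjusted p of 0.223, so a difference between leukemia and WT was not shown. In mature DC-like cells the Irf1 value was called without leukemia panobinostat 1 (0.46, adjusted p = 0.022).

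Irf8 in mature DC-like cells was at 301, 384 and 357 CPM with panobinostat, against 277, 311 and 307 CPM with vehicle (leukemia 1, leukemia 2 and WT). The lowest panobinostat value lay among the vehicle values, and the difference was 0.31 ± 0.10 on the log2 scale (edgeR adjusted p = 0.2). Without leukemia panobinostat 1 it was 0.41 and called (adjusted p = 0.0424). The makeup of the class also differed between these samples. The Arc-led cluster, in which Irf1 and Irf8 are high, made up 27.1%, 39.4% and 41.5% of mature DC-like cells with panobinostat, against 24.4%, 30.6% and 29.3% with vehicle. The Dkk2-led cluster made up 30.2%, 19.6% and 17.1% with panobinostat, against 28.4%, 30.6% and 45.1% with vehicle. Within the Arc-led cluster Irf1 was at 560.1, 567 and 476 CPM with panobinostat, against 514, 494 and 444 CPM with vehicle, and Irf8 was at 564, 625 and 499.5 CPM, against 492, 555 and 507 CPM. Irf1 was not higher with panobinostat in every cluster. In the Dkk2-led cluster it was at 94.0, 80.3 and 97.3 CPM with panobinostat, against 113, 119 and 91.3 CPM with vehicle. In the Lta-led cluster it was at 56.3, 52.9 and 63.2 CPM, against 97.1, 84.1 and 177 CPM, so lower without overlap. The part of the cluster shares in the class values was not tested.

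Irf7 in cDC1-like cells was at 71.7, 55.9 and 39.3 CPM with panobinostat, against 83.2, 90.7 and 39.9 CPM with vehicle (leukemia 1, leukemia 2 and WT). It was lower with panobinostat in both leukemia samples and level in WT, with a difference of -0.28 ± 0.10 on the log2 scale (edgeR adjusted p = 0.163). With the leukemia samples alone it was -0.41 and called (adjusted p = 0.0306). In pDC-like cells, where Irf7 is highest, it was at 309, 246 and 291 CPM with panobinostat, against 309.6, 331 and 223 CPM with vehicle. The groups overlapped, the difference was -0.05 with a 95% interval of -0.23 to 0.12, and the WT panobinostat value rests on 61 UMIs. Irf8 in pDC-like cells differed by -0.02 with an interval of -0.11 to 0.07 (edgeR adjusted p = 0.985).

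The other members gave no call, and their differences with panobinostat ran from -0.25 (Irf3, cDC2-like) to 0.41 (Irf4, pDC-like). Some of them were lower with panobinostat without overlap. Irf2 in cDC1-like cells was at 65.5 to 73.5 CPM, against 76.7 to 81.7 CPM with vehicle. Irf3 in cDC2-like cells was at 32.1 to 33.6 CPM, against 37.2 to 49.3 CPM. Irf9 in mature DC-like cells was at 32.9 to 36.1 CPM, against 36.4 to 47.9 CPM. How many of all genes lack overlap between these groups was not counted. A test of whether the panobinostat effect differs between the 4 classes called none of the 8 members, against 1.92% of all genes. The lowest adjusted p in it was 0.0553, for Irf8.

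**Figure D4:**
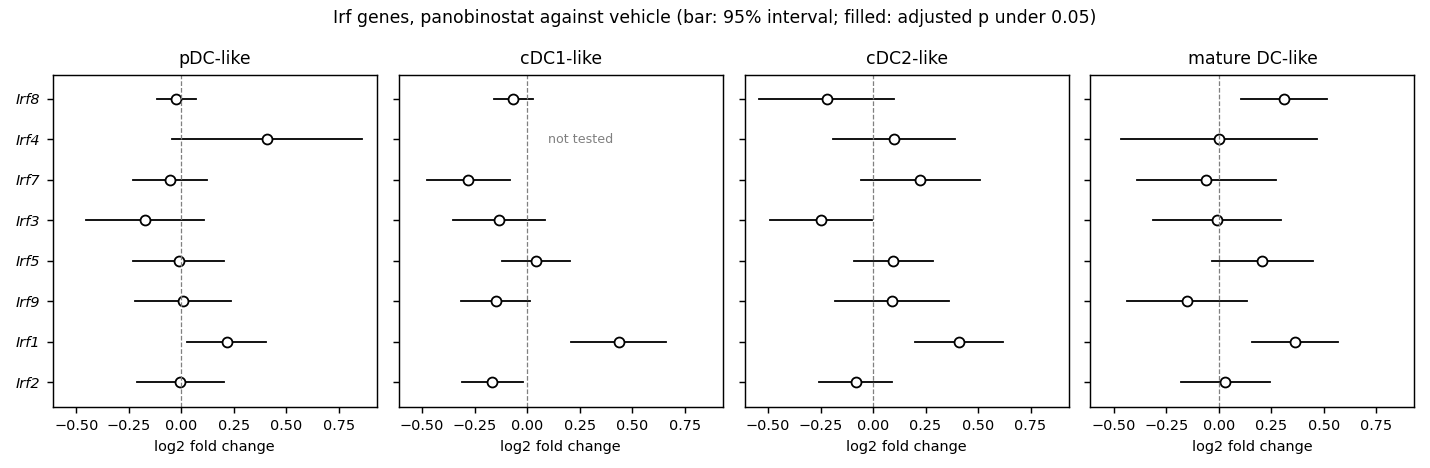
Log2 fold change of panobinostat against vehicle for each Irf gene in 4 DC classes, with its 95% interval from edgeR's fit (horizontal axis, log2); filled points would mark an adjusted p under 0.05. No point is filled. Irf1 lies to the right of 0 in all 4 classes and Irf3 to the left, at -0.01 in mature DC-like cells.

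Some pathway genes were called with panobinostat in cDC1-like cells, where 2.7% of all genes were called. There 4 of 14 type I interferon targets rose and none fell, with Ly6a up by 0.97 ± 0.10 on the log2 scale (edgeR adjusted p = 0.000199), the nucleic acid sensor Zbp1 by 0.55 ± 0.10 (adjusted p = 0.0126) and Ifi27l2a by 0.38 ± 0.08 (adjusted p = 0.0165). Of the 15 interferon gamma and IRF1 targets 1 rose, Irgm1 (0.64 ± 0.10, edgeR adjusted p = 0.00526). Of these 15 genes 14 were positive, with a median of 0.57 against -0.01 over all genes. An unadjusted p under 0.05 in edgeR's test was found for 11 of them and for 1696 of all 9895 genes tested. Of the 15 IRF-activating genes tested Tmem173, which encodes the sensor adaptor STING, rose by 0.51 ± 0.13 (adjusted p = 0.0425).

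In the other classes fewer list genes were called for the effect averaged over leukemia and WT. In pDC-like cells 1 of the 14 DC factors rose, Klf4 (0.52 ± 0.11, edgeR adjusted p = 0.022), and none of the 15 type I targets was called. Of the 14, 1 rose in mature DC-like cells, Id2, the inhibitor of E proteins (0.42 ± 0.07, edgeR adjusted p = 0.00947). None of the genes in the 6 lists was called in cDC2-like cells. A test of whether the panobinostat effect differs between the 4 classes, which called 1.92% of all genes, called 2 of 19 type I targets (Ly6a and Ifi27l2a), 1 of 15 interferon gamma and IRF1 targets (Irgm1) and 1 of 14 DC factors (Id2).

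The panobinostat effect on 3 list genes differed between leukemia and WT in edgeR's interaction test. In cDC2-like cells the effect was lower in leukemia than in WT for the chemokine Cxcl10, by -2.01 ± 0.36 on the log2 scale (adjusted p = 0.0321), and for Ifi27l2a, by -1.07 ± 0.14 (adjusted p = 0.00351), where 0.146% of all genes were called. In pDC-like cells it was lower for Ly6a, by -0.53 ± 0.10 (edgeR adjusted p = 0.0122), where 0.128% of all genes were called, and the WT panobinostat sample there holds 36 cells. No list gene passed it in cDC1-like or mature DC-like cells, where 0.851% and 0.285% of all genes were called. WT has 1 hashed sample per treatment in this test.

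Leukemia was compared with WT in the same fits, 4 hashed samples against 2. Irf7 in cDC1-like cells was the only call among the members, where 10.8% of all genes were called. It was at 71.7, 55.9, 83.2 and 90.7 CPM in leukemia (panobinostat 1 and 2, vehicle 1 and 2), against 39.3 and 39.9 CPM in WT (panobinostat and vehicle). Each leukemia sample lay above both WT samples. Irf7 was 0.81 ± 0.11 higher on the log2 scale (SE, edgeR adjusted p = 0.000152), and it was called under each of the 17 settings of the analysis, at 0.59 to 0.999.

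The same order stood within the cDC1-like clusters. In the main one, led by Clps, Hepacam2 and Itgae, Irf7 was at 80.6, 55.1, 90.2 and 91.9 CPM in leukemia, against 42.2 and 40.8 CPM in WT. In the one with 4 cycling markers raised it was at 40.6, 58.3, 55.8 and 88.1 CPM in leukemia, against 34.0 and 35.2 CPM in WT. The summed pDC markers in cDC1-like cells were at 61.8 to 82.2 CPM in leukemia against 84.2 and 98.3 CPM in WT, with none of 9 markers at 0. All 6 samples were in 1 capture. The part of free RNA from other cells in the Irf7 difference was not tested. Irf7 was at 38.7, 40.3, 70.4 and 39.6 CPM in erythroid-like cells of leukemia, against 42.2 and 43.5 CPM in those of WT, so the WT cDC1-like levels were near the level in erythroid-like cells. In monocyte-like cells it was at 60.1, 50.2, 101.4 and 75.8 CPM in leukemia, against 28.4 and 42.2 CPM in WT, which did not overlap and were not tested.

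Irf7 was also higher in leukemia on average in the other classes, without passing the test. In cDC2-like cells it was at 58.2, 39.8, 48.2 and 44.5 CPM in leukemia, against 33.1 and 27.2 CPM in WT, which did not overlap (0.66 ± 0.15, edgeR adjusted p = 0.152). Of all genes only 0.0914% were called there. The Clec4a3-led cluster, in which Irf7 is high, made up 11.1%, 9.24%, 17.6% and 16.8% of cDC2-like cells in leukemia, against 5.36% and 4.19% in WT. Within it Irf7 was at 103.8, 105.2, 105.8 and 78.2 CPM in leukemia, against 38.8 and 38.4 CPM in WT. In the main cDC2-like cluster it was at 52.9, 29.8, 37.5 and 42.0 CPM in leukemia, against 32.9 and 30.5 CPM in WT, and the groups overlapped. In pDC-like cells it was at 309, 246, 309.6 and 331 CPM in leukemia, against 291 and 223 CPM in WT (0.36 ± 0.10, edgeR adjusted p = 0.0856, all genes 0.949%). That value turned to -0.06 without WT vehicle. Irf7 in mature DC-like cells was at 22.7, 19.2, 23.5 and 19.9 CPM in leukemia, against 14.98 and 18.0 CPM in WT, again without overlap (0.33 ± 0.17, edgeR adjusted p = 0.522, all genes 1.44%). The Lta-led cluster, with Irf7 at 27.8 CPM in its pooled UMIs, made up 23.1%, 22.9%, 34.9% and 23.1% of mature DC-like cells in leukemia, against 4.06% and 6.42% in WT. The part of these cluster shares in the class values was not tested. Whether the leukemia difference of Irf7 differs between classes was not tested. Lack of overlap was not particular to Irf7. In pDC-like cells Irf5 was at 71.2 to 76.8 CPM in leukemia against 57.2 to 68.4 CPM in WT, and Irf8 at 2831 to 2961 against 2620 to 2803 CPM. In cDC1-like cells Irf8 was at 1554 to 1704 CPM in leukemia against 1427 CPM in both WT samples, and Irf4 at 0 to 1.17 against 1.21 to 1.28 CPM. How many of all genes lack overlap between leukemia and WT was not counted.

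Irf4 in pDC-like cells was at 16.6, 12.03, 10.7 and 11.02 CPM in leukemia, against 9.53 and 20.8 CPM in WT. The WT samples lay on either side of the leukemia samples, and the WT panobinostat value rests on 2 UMIs. The difference was -0.85 ± 0.22 on the log2 scale (edgeR adjusted p = 0.053), and it turned to 0.67 without WT vehicle. Irf8 in cDC2-like cells was at 71.1, 58.4, 108 and 55.9 CPM in leukemia, against 105 and 118 CPM in WT (-0.60 ± 0.16, edgeR adjusted p = 0.276), and the groups overlapped. That value turned to 0.405 with the ratio hashtag call, under which the monocyte-like cluster is called cDC2-like, and 4 of 17 settings called it, from -0.85 to -0.61. In pDC-like and cDC1-like cells Irf8 differed by 0.07 (95% interval -0.03 to 0.17) and 0.08 (-0.02 to 0.18) on the log2 scale between leukemia and WT. Irf1 in cDC1-like cells was at 58.2, 47.1, 36.0 and 31.7 CPM in leukemia, against 33.4 and 30.1 CPM in WT (0.33 ± 0.12, edgeR adjusted p = 0.0901).

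**Figure D5:**
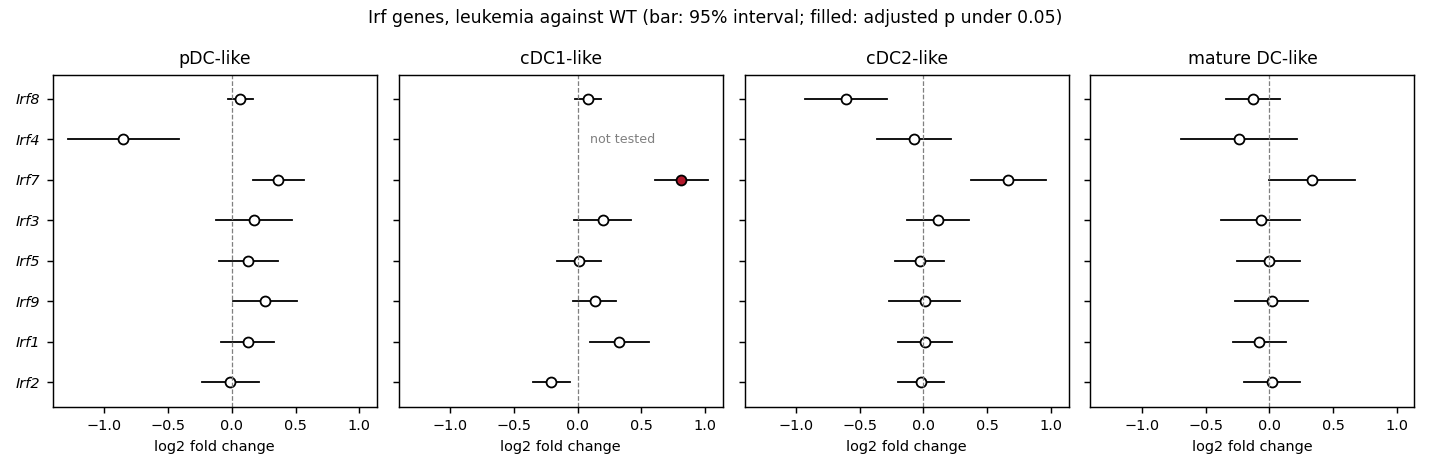
Log2 fold change of leukemia against WT for each Irf gene in 4 DC classes, with its 95% interval from edgeR's fit (horizontal axis, log2); filled points mark an adjusted p under 0.05. The one filled point is Irf7 in cDC1-like cells, at 0.81.

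The genes around Irf7 differed in the same cDC1-like cells. Of 14 type I interferon targets, 8 were higher in leukemia, none was lower and all 14 were positive, with a median log2 change of 1.06 against 0.00 over all genes. Rsad2, which encodes viperin, was higher by 1.61 ± 0.34 (edgeR adjusted p = 0.00648), Ly6a by 1.20 ± 0.11 (adjusted p = 7.25e-06) and Ifi44 by 1.15 ± 0.27 (adjusted p = 0.0117). Of the 8 ISGF3 pathway genes 4 were higher and 1 lower. The negative regulators Usp18 (1.10 ± 0.16, adjusted p = 0.00032) and Socs1 (0.90 ± 0.14, adjusted p = 0.000518) led in edgeR's test, and the IRF9 partner Stat2 was higher by 0.48 ± 0.14 (adjusted p = 0.0423). Irf9 itself was at 49.2, 42.5, 55.4 and 54.2 CPM in leukemia, against 42.5 and 42.9 CPM in WT (0.13 ± 0.08, adjusted p = 0.362).

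Of 15 interferon gamma and IRF1 targets 6 were higher in leukemia in cDC1-like cells and none was lower, with a median of 0.56. The GTPase genes Iigp1 (2.21 ± 0.27, edgeR adjusted p = 8.19e-05), Gbp5 (1.20 ± 0.27, adjusted p = 0.00872) and Igtp (1.11 ± 0.18, adjusted p = 0.000939) led it. Of the 15 IRF-activating genes tested 2 were higher and 2 lower. Tmem173 was higher by 0.69 ± 0.13 (edgeR adjusted p = 0.00271) and Tlr3, the cDC1 receptor for double-stranded RNA, by 0.50 ± 0.07 (adjusted p = 0.000341), while the adaptor Traf3 was lower (-0.57 ± 0.18, adjusted p = 0.0498). Of 13 DC factors 2 were lower, Nfil3 (-0.95 ± 0.18, edgeR adjusted p = 0.00283) and Bcl11a (-0.34 ± 0.08, adjusted p = 0.00915).

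Fewer list genes were called in the other classes. In pDC-like cells 3 of 15 type I targets were higher in leukemia, Ifit2 (1.02 ± 0.27, edgeR adjusted p = 0.0475), Ifi44 (0.79 ± 0.14, adjusted p = 0.000799) and Ifi27l2a (0.59 ± 0.08, adjusted p = 2.56e-06), with a median of 0.47 over the 15. The factor Klf4 was lower (-0.79 ± 0.12, edgeR adjusted p = 5.81e-05). In cDC2-like cells Isg15 alone was called of 18 type I targets (0.59 ± 0.10, edgeR adjusted p = 0.0421), while all 18 were positive with a median of 0.55. In mature DC-like cells Isg15 (0.89 ± 0.12, adjusted p = 0.000139) and Ifi27l2a (0.63 ± 0.11, edgeR adjusted p = 0.00194) were higher of 14 type I targets, and Socs1 was lower (-0.64 ± 0.15, adjusted p = 0.0294). Of the DC factors there Zeb2 (1.06 ± 0.12, adjusted p = 3.14e-05) and Bcl6 (0.68 ± 0.15, edgeR adjusted p = 0.0184) were higher. The larger share of the Lta-led cluster in leukemia, given above, stands beside these values, and its part in them was not tested.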

How the data were processed

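The authors deposited counts, whole UMI numbers per gene, antibody tag and hashtag and per cell barcode, in 1 matrix. The submitters' processing notes name Cell Ranger (3.1.0), Seurat (3.1.0), mm10 and GRCm38. The role of each tool, the strand setting of counting and the handling of multi-mapped reads are not given in the sources used here. GEO lists 3 samples, which are the RNA, hashtag and surface antibody libraries of 1 capture.

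Of 38717 barcodes with 426901103 gene UMIs, 23294 had 1 hashtag above the 99% point (0.99 quantile) of a negative binomial background, 11800 had more than 1 and 3623 were without any. Barcodes with at least 500 genes and no more than 10% of UMIs from mitochondria were scored against simulated doublets, and 2113 of 22149 (9.54%) with a score of 0.5 or more were left out. Cells were clustered by Leiden (leidenalg 0.10.2, resolution 1) on 2000 variable genes and 30 components, without the members and the other list genes. A cluster was named only with 3 or more raised markers of a class. UMIs were summed per class and hashed sample with 20 or more cells and tested with edgeR 4.0.16 (quasi-likelihood, TMM, filterByExpr, Benjamini-Hochberg over all genes tested). Models held disease and treatment, and for class pairs the hashed sample as a block. Hashed samples were the replicates, never cells. Positions came from GENCODE vM21 and promoter windows from RefSeq.

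Counts were simulated from the average profile over classes and samples, with the real totals, a fixed spread and 200 genes changed 2-fold. The changed genes were drawn from those with enough expected counts in the smallest sum. The panobinostat fit recovered 98.5% in pDC-like cells (197) and 99.5% in mature DC-like cells. The fitted medians were 0.993 in pDC-like and 1.016 in mature DC-like cells on the log2 scale. The real spread between samples and the profile of each class were not simulated, so these shares do not give the power of the real comparison. Changes as small as those of most members were not simulated. Same-numbered leukemia samples correlated at 0.01 to 0.19 in their deviations. The numbers were not taken as pairs, though these values cannot show that there was no pairing. Alternatives were other normalizations, DESeq2 1.42.0, filters, hashtag and doublet calls, clustering and thinning settings, and each hashed sample left out. The members and lists were chosen with earlier results of these data known. Named genes are all 8 members and, per list and comparison, up to 3 called genes with the greatest change. For class pairs this was applied in full to pDC-like against cDC1-like cells and otherwise to the interferon gamma and IRF1 targets of cDC2-like against mature DC-like cells.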

Additional observations from a re-analysis of the deposited data

Results flagged for a closer look

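A difference between leukemia and WT in the panobinostat effect, tested as an interaction in edgeR's fit, had an unadjusted p under 0.05 for 4 members, and none passed after adjustment over all genes. For Irf7 in pDC-like cells the interaction was -0.50 on the log2 scale (edgeR adjusted p = 0.761). For Irf3 in cDC1-like cells it was -0.55 (edgeR adjusted p = 0.195), for Irf1 in cDC1-like cells 0.53 (adjusted p = 0.223) and for Irf4 in mature DC-like cells 1.12 (adjusted p = 0.523). The same test passed for 3 genes of the other lists, Ly6a in pDC-like cells (-0.53, edgeR adjusted p = 0.0122) and Cxcl10 (-2.01, adjusted p = 0.0321) and Ifi27l2a (-1.07, adjusted p = 0.00351) in cDC2-like cells.

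The edgeR test of a panobinostat effect that differs between the 4 DC classes gave F = 4.45 for Irf7 (adjusted p = 0.172) and F = 6.25 for Irf8 (adjusted p = 0.0553). In all, 39 such differences of members were tested and 6 had an unadjusted p under 0.05. Of all genes, 650 of 10172 (pDC-like), 1016 of 10220 (cDC1-like), 718 of 10269 (cDC2-like) and 584 of 9819 (mature DC-like) had one in the interaction test. In the test between classes 1400 of 11429 genes had one.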

How the results depend on the processing

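Limits. WT had 1 hashed sample per treatment, so its spread is borrowed from the leukemia samples, and leukemia vehicle 2 and the 36 pDC-like cells of WT panobinostat weigh on every count of calls. Depth limits Irf4 in cDC1-like cells and all members in pDC-like cells of WT panobinostat. Across settings, 792 values of single members kept their direction and side of the threshold, 52 passed it newly, 9 no longer passed it and 37 changed sign.

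Genes called with panobinostat numbered 34, 267, 15 and 85, in the order of pDC-like, cDC1-like, cDC2-like and mature classes. Leaving out 1 hashed sample at a time moved them to between 6 (without leukemia vehicle 1) and 57 (without WT panobinostat), 17 (without leukemia vehicle 1) and 448 (without leukemia panobinostat 1), 0 (without leukemia panobinostat 1) and 103 (without WT vehicle), and 19 (without leukemia panobinostat 2) and 197 (without leukemia panobinostat 1). Members called ran from 0 to 2 in cDC1-like and mature DC-like cells and stayed at 0 in the others. Without a filter on low counts 53, 600, 197 and 278 genes were called, with 1 member in cDC1-like and 2 in mature DC-like cells. DESeq2 called 3 (pDC-like), 124 (cDC1-like) and 26 (mature DC-like). The ratio hashtag call gave 14 in pDC-like and 38 in cDC2-like cells, with 1 member in cDC1-like cells. Without the doublet filter 47 were called in cDC1-like and 32 in cDC2-like cells. Leiden resolution 0.5 gave 22 (pDC-like) and 18 (mature DC-like), and list genes in clustering gave 118 (cDC1-like). Thinned cells gave 19 (pDC-like), 30 (cDC1-like) and 7 (cDC2-like). Leukemia samples alone gave 88 (cDC2-like) and 38 (mature DC-like), with 2 members in cDC1-like cells. Library totals without scaling factors, added after seeing the data, gave 1 member in cDC1-like cells. Leaving out cycling clusters, also added then, gave 76 genes in cDC2-like cells and 1 member in cDC1-like cells.

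The replicate block on the hashtag numbers, with leukemia samples alone, called 100 genes in pDC-like and 213 in cDC2-like cells and 2 members in cDC1-like cells. Same-numbered samples correlated at 0.03, 0.01, 0.19 and 0.09 in the 4 classes. With 2 samples per leukemia group these values cannot show whether equal numbers mark a pairing.

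Leukemia against WT called 90, 1071, 9 and 133 genes in the same order of classes. Leaving out 1 hashed sample at a time gave 19 (without WT vehicle) to 122, 457 (without WT vehicle) to 1247, 2 (without leukemia panobinostat 1) to 86 (without WT panobinostat), and 68 (without leukemia vehicle 1) to 157. Members called then ran from 0 to 2 in pDC-like, 1 to 2 in cDC1-like and 0 to 1 in cDC2-like cells. Without a filter on low counts 144 (pDC-like), 163 (cDC2-like) and 323 (mature DC-like) genes and 2 members in each of pDC-like, cDC1-like and cDC2-like cells were called. DESeq2 called 16, 456, 16 and 76. The ratio hashtag call gave 54 (pDC-like) and 47 (cDC2-like, 1 member), and no doublet filter gave 171 (pDC-like, 1 member), 521 (cDC1-like) and 26 (cDC2-like). Leiden resolution 0.5 gave 25 genes in cDC2-like cells and 1 member each in pDC-like and cDC2-like cells, and list genes in clustering gave 28 genes there and 1 member in each of the same classes. Thinned cells gave 33 (pDC-like), 297 (cDC1-like) and 4 (cDC2-like). Leaving out cycling clusters gave 47 genes and 1 member in cDC2-like cells, and library totals gave 3 members in cDC1-like cells.

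Between classes, thinned cells gave 4886 genes called for pDC-like against cDC1-like cells in place of 7670, and 3812 for cDC1-like against cDC2-like cells in place of 6581. Library totals gave 7 members in place of 4 for cDC2-like against mature DC-like cells.

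Signs that turned, on the log2 scale, were these, with the range over left-out hashed samples where one of them turned it. For leukemia against WT, leaving out samples gave -0.965 to 0.669 for Irf4 and -0.056 to 0.488 for Irf7 in pDC-like cells and -0.078 to 0.469 for Irf3 in cDC1-like cells, each turned without WT vehicle. The ratio hashtag call gave 0.405 for Irf8 in cDC2-like cells. For pDC-like against cDC1-like cells, Irf2 turned with library totals (0.274) and thinned cells (0.039). Irf3 there ran from -0.024 to 0.073 and turned without leukemia panobinostat 1, without WT vehicle, without a filter (-0.004), without the doublet filter (-0.055) and without cycling clusters (-0.014). For pDC-like against mature DC-like cells, Irf3 ran from -0.127 to 0.003 and turned without WT vehicle, with library totals (0.331), without the doublet filter (0.021), with list genes (0.041) and thinned (0.064). For cDC1-like against cDC2-like cells, Irf1 ran from -0.005 to 0.185 and turned without leukemia panobinostat 1, with library totals (-0.15) and thinned (-0.041). Irf3 there ran from -0.049 to 0.033 and turned without WT vehicle, without a filter (0.005) and without the doublet filter (0.029), and Irf9 turned with library totals (-0.129). For cDC2-like against mature DC-like cells, Irf3 turned with library totals (0.238), without the doublet filter (0.047), at resolution 0.5 (0.011), with list genes (0.029), thinned (0.133) and without cycling clusters (0.04). Irf4 there ran from -0.096 to 0.084 and turned without leukemia panobinostat 1, without WT vehicle, with library totals (0.273), the ratio hashtag call (0.384), no doublet filter (0.135), resolution 0.5 (0.324), list genes (0.044) and without cycling clusters (0.178). The cause was not tested.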
